A study of Homo sapiens with 21 samples.

Results

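The genes described here are 8 enzymes and proteins of folate metabolism, serine-glycine exchange and glycine cleavage: TYMS, SHMT1, SHMT2, MTHFD1, MTHFD2, MTHFD1L, GCSH and AMT. They were chosen by name and not by any measured value, and are 8 of the 58174 gene identifiers in the files. All 8 passed the filter on low counts in both fits used below. Their RNA was measured by poly(A) RNA sequencing in 21 libraries of OCI-AML5, a human acute myeloid leukemia cell line, in 7 groups of 3 libraries each. The labels give DMEM with serum as the medium, whereas the study's methods give MEM alpha with serum and GM-CSF for this line.

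Control cells were exposed to DMSO, the vehicle, labelled 72 h, or to UM171, a small molecule used to expand blood stem cells in culture, labelled 500 nM, for 6, 24, 48 or 72 h. Cells carrying an sgRNA against EPCR (PROCR, the endothelial protein C receptor), which the labels call clones and both EPCR null and EPCR knockdown, were exposed to DMSO or to UM171 for 24 h. The study's figure legends name sgAAVS1 for the control cells, whereas the labels of the control libraries name no guide. The study's text describes independent sgEPCR clones, but the labels do not tie library numbers to clones. Nothing says which libraries came from separate cultures, so p-values measure the spread between these libraries. That spread may be technical, or in sgEPCR cells may lie between clones. The DMSO libraries of the control cells match the 72 h UM171 libraries in labelled time but not those at 6, 24 and 48 h, nor the sgEPCR DMSO libraries (24 h). In those comparisons treatment or genotype and time in culture cannot be told apart.

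Folate carries single carbon units in oxidation states that are exchanged by a chain of enzymes, and most of these units come from serine. In the cytosol SHMT1 moves a carbon from serine to tetrahydrofolate, MTHFD1 interconverts the folate forms, and TYMS spends methylene-folate to make thymidylate for DNA. In mitochondria SHMT2, MTHFD2 and MTHFD1L run a parallel chain that turns serine into formate, which leaves for the cytosol and feeds purine and thymidylate synthesis. GCSH (the lipoyl-carrying H protein) and AMT (the T protein) are parts of the mitochondrial glycine cleavage system, which takes a carbon from glycine. In proliferating blood cells the pathway supplies DNA synthesis, and antifolate drugs act on it.

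Each library held 24.3 to 51.5 M counts (median 33.9 M). Reads from the 37 mitochondrially encoded genes were 7.73 to 13.5% of the counts in 19 libraries, but 35.9% in the DMSO replicate 1 and 32.2% in the UM171 replicate 2 of the sgEPCR cells. Both stand apart, so the fold changes of the members and of the lists in sgEPCR cells are given with and without them, and the MTHFD2 to MTHFD1 ratio is given by library. PROCR lay between 48.48 and 48.5 TPM (transcripts per M, a length-corrected share of the library) in control cells at 24 h of UM171, and between 4.23 and 8.94 TPM in sgEPCR cells in UM171. In DMSO the ranges were 3.37 to 4.3 TPM in control cells and 2.3 to 4.53 TPM in sgEPCR cells. A guide need not lower the RNA of its target, and the RNA does not measure the protein. Of 9 myeloid leukemia cell markers 8 reached 1 TPM, and their summed level was 864 to 890 TPM in DMSO, 631 to 768 TPM in control cells with UM171, 406 to 546 TPM in sgEPCR cells in DMSO and 721 to 742 TPM in sgEPCR cells in UM171. In sgEPCR cells in UM171 single markers spread more than their sum, with PTPRC at 254 to 579, SPI1 at 102 to 291 and CEBPA at 6.63 to 35.0 TPM. Without the 2 high-mitochondrial libraries, 3 of 8 tested markers rose and 3 fell with UM171 in sgEPCR cells (adjusted p under 0.05, edgeR). Of all genes 34.5% rose and 36.4% fell there. The summed level thus differed between groups, and its part in the results was not tested. Of 4 T cell markers CD3D alone reached 1 TPM, with a summed level of 0.14 to 0.8 TPM in DMSO and 13.7 to 19.3 TPM at 48 h of UM171. Of 4 B cell markers CD79A and CD79B reached 1 TPM and MS4A1 was listed at 0 in all libraries, with sums of 9.48 to 10.5 TPM in DMSO and 37.5 to 43.3 TPM at 48 h. The summed level of 5 erythroid markers was at most 0.09 TPM and that of 6 fibroblast and epithelial markers at most 4.66 TPM. In bulk RNA, fewer cells of a type and less RNA per cell cannot be told apart.

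The promoters of 4 members are shown because their genes moved in 2 different ways over time: TYMS and GCSH were highest at 24 h of UM171, whereas MTHFD2 and MTHFD1L were highest at 72 h. Each is the RefSeq window from 250 bases before to 50 bases after an annotated start in GRCh38.p14, written 5′ to 3′ along the gene. Of the 8 members 7 had such a window, with SHMT2 not among them, and MTHFD1L had 4, of which the window shown and 2 others overlap. The windows are chr18:657403-657702 (plus strand) for TYMS, chr16:81096346-81096645 (minus strand) for GCSH, chr2:74198365-74198664 (plus strand) for MTHFD2 and chr6:150866236-150866535 (plus strand) for MTHFD1L. Capitals mark matches on either strand to CCAAT (the CCAAT box), CACGTG (the E-box), TGATGCAA (the core of the amino acid response element bound by ATF4) and the E2F-type letters TTTGGCGC, TTTCCCGC, TTTCGCGC and TTTGCCGC.
TYMS: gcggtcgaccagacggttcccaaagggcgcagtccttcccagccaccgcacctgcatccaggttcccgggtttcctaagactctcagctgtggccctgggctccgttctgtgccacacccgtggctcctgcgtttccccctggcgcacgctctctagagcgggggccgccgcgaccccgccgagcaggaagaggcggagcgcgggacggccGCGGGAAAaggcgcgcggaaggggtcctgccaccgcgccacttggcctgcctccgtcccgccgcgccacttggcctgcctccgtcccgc
GCSH: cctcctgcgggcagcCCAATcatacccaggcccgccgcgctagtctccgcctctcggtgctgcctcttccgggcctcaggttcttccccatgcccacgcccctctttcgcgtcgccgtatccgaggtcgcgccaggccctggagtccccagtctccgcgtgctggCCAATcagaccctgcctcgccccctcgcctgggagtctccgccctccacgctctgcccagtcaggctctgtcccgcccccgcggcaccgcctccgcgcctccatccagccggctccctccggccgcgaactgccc
MTHFD2: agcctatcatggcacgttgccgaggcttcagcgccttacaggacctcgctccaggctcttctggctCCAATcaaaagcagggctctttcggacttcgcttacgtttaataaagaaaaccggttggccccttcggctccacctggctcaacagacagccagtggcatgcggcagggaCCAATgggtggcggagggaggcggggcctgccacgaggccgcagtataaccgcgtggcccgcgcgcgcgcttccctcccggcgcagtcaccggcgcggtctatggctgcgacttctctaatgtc
MTHFD1L: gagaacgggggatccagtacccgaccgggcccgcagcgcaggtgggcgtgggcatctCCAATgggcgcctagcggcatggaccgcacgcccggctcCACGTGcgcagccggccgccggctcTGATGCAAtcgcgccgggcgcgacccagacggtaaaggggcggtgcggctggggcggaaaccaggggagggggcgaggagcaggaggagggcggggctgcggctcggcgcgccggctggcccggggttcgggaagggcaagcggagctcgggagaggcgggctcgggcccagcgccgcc
The TYMS window held 1 E2F-type match and no CCAAT, whereas the GCSH and MTHFD2 windows held 2 CCAAT matches each and no other marked motif. The MTHFD1L window held 1 match each to the CCAAT box, the E-box and TGATGCAA. The windows of SHMT1 and MTHFD1 held 2 CCAAT matches each, that of AMT held 1, and that of MTHFD1 also held 1 E-box. Among all 35114 windows of this length, 34.6% held a CCAAT box, 7.26% an E-box, 0.866% TGATGCAA and 3.31% an E2F-type match. A match is a run of letters and not a measured binding site, and a window without one says nothing about the factor.

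In the GRCh38 annotation TYMS lies at chr18:657653-673578, SHMT1 at chr17:18327860-18363563, SHMT2 at chr12:57229573-57234935 and MTHFD1 at chr14:64388031-64463457. MTHFD2 spans chr2:74186172-74217565, MTHFD1L chr6:150865679-151101887, GCSH chr16:81081945-81096395 and AMT chr3:49416778-49422685. Counts are over whole genes, and SHMT1, GCSH and AMT are on the minus strand. TYMS overlaps ENOSF1 and TYMSOS, SHMT1 overlaps SMCR8, SHMT2 overlaps NDUFA4L2, MTHFD1 overlaps ZBTB25 and MTHFD2 overlaps SLC4A5, each on the opposite strand. Whether the counting used strand is not given in the sources used here, so reads of such pairs may be mixed. RSEM's posterior SD from shared reads was at most 0.013% of the count for TYMS, SHMT1, SHMT2, MTHFD1, MTHFD2 and MTHFD1L, and at most 2.67% for GCSH.

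In DMSO the members spanned a wide range of levels per transcript length. MTHFD2 was the most abundant at 196 ± 3.81 TPM (SD, n = 3), followed by TYMS at 161 ± 3.61, SHMT2 at 154 ± 9.02, MTHFD1 at 95.8 ± 2.46 and MTHFD1L at 71.5 ± 1.97 TPM. TYMS and SHMT2 overlapped in range (158 to 165 and 144 to 161 TPM) and their order was within their spread. GCSH at 18.6 ± 0.462 TPM and SHMT1 at 8.14 ± 0.780 TPM were lower, and AMT at 0.430 ± 0.139 TPM rested on 12 to 20.4 expected counts per library. After 24 h of UM171 TYMS ranked highest of the 8 at 291 ± 10.6 TPM, whereas after 72 h MTHFD2 led at 540 ± 32.2 TPM and SHMT2 followed at 393 ± 16.2 TPM.

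**Figure D1:**
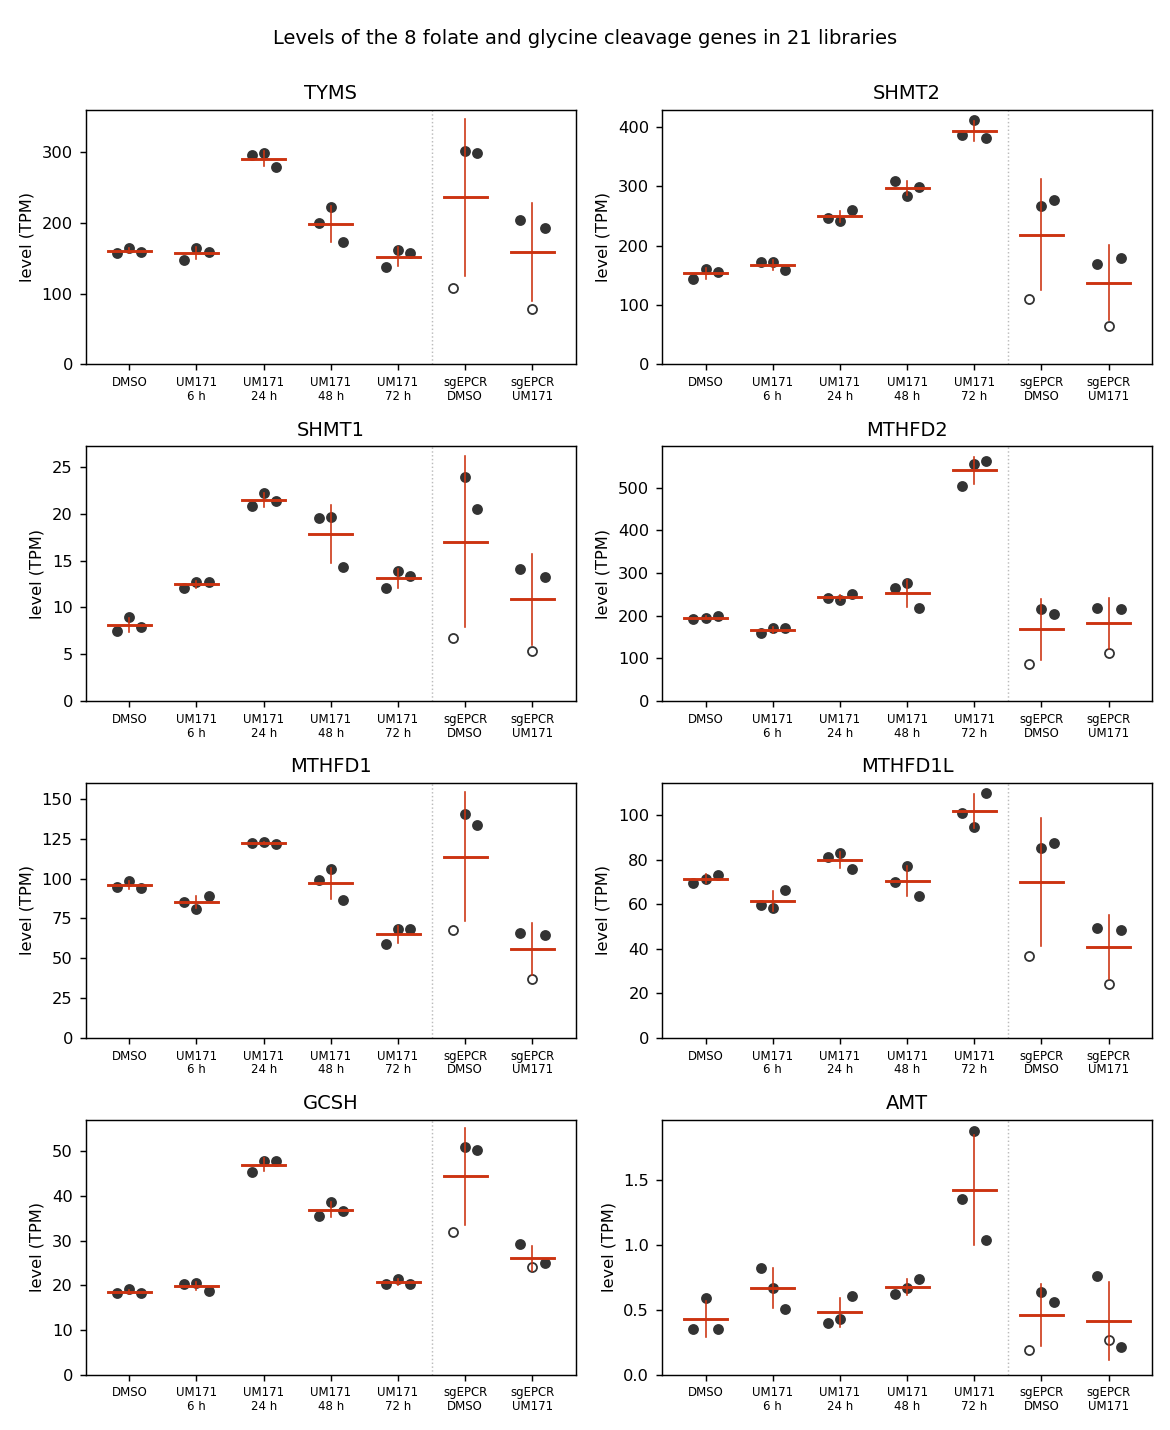
Level in TPM of each of the 8 genes in every library (points), by group on the horizontal axis, with the group mean (red bar) and SD (red line, n = 3); open points are the 2 sgEPCR libraries with over 30% mitochondrial counts. The left column holds genes highest among control cells at 24 h of UM171 (TYMS at 291, GCSH at 47.0 TPM), the right column genes highest at 72 h (MTHFD2 at 540, SHMT2 at 393 TPM).

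The following comparisons ask how the genes changed with time in UM171. Counts of 15 libraries and 16575 genes were tested with edgeR's quasi-likelihood test and p adjusted by Benjamini and Hochberg. Genes were called if they changed more than 2-fold with an adjusted p under 0.0001, and are said to rise or fall where the adjusted p was under 0.05.

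TYMS, the thymidylate synthase targeted by fluorouracil, fell slightly at 6 h, was highest at 24 h and overlapped the DMSO range again at 72 h. Its TPM was 158, 165 and 159 in the DMSO libraries and 148, 164 and 159 after 6 h. It reached 296, 299 and 279 TPM after 24 h, then read 200, 223 and 173 (48 h) and 138, 162 and 158 (72 h). All 24 h libraries lay above all others of the control cells, and the 72 h and DMSO ranges overlapped. Against DMSO its log2 fold change was -0.23 ± 0.05 (SE) after 6 h (adjusted p = 5.8e-04, edgeR), 0.84 ± 0.05 after 24 h (6.9e-11), 0.38 ± 0.05 after 48 h (1.5e-06) and -0.07 ± 0.05 after 72 h (0.17).

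SHMT1, the cytosolic serine hydroxymethyltransferase, rose the most of the 8 at 24 h and was above DMSO at every time. Its TPM was 7.51, 9.01 and 7.89 in DMSO, 12.1, 12.7 and 12.7 after 6 h, and 20.8, 22.2 and 21.4 after 24 h. It then read 19.6, 19.7 and 14.3 TPM (48 h) and 12, 13.9 and 13.4 TPM (72 h). No UM171 library of the control cells fell within the DMSO range. It stood 2.64-fold above DMSO after 24 h (log2 1.40 ± 0.06, adjusted p = 4e-12, edgeR), against log2 changes of 0.51 ± 0.07 (6 h), 1.16 ± 0.06 (48 h) and 0.66 ± 0.07 (72 h).

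MTHFD1, the trifunctional cytosolic enzyme, rose by less and ended below DMSO. Its TPM was 94.8, 98.6 and 94 in DMSO, 122, 123 and 121 after 24 h and 59.1, 68.1 and 68.3 after 72 h, and neither UM171 group overlapped DMSO. Its log2 fold change was 0.58 ± 0.04 at 24 h and -0.42 ± 0.04 at 72 h (adjusted p = 2e-10 and 1.1e-08, edgeR), and from 48 to 72 h it fell by 0.65 on the log2 scale. The mean transcript length that RSEM assigned to MTHFD1 was longer with UM171, at 2060 to 2153 bases in DMSO against 2457 to 2559 at 24 h and 2357 to 2565 at 72 h. Such a lengthening without overlap was seen for 11% of tested genes at 24 h and 12.5% at 72 h. Since TPM divides by length and the counts do not, the 2 scales give different sizes for this gene.

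GCSH, the H protein of glycine cleavage, was also highest at 24 h, although it is mitochondrial. Its TPM was 18.2, 19.1 and 18.4 in DMSO and 45.3, 47.9 and 47.7 after 24 h, and it fell back to 35.6, 38.7 and 36.6 TPM (48 h) and 20.3, 21.4 and 20.2 TPM (72 h). The 24 h libraries were the highest of the control cells, and the 72 h libraries lay just above the DMSO range. After 24 h GCSH was 2.16-fold above DMSO (log2 1.11 ± 0.06, adjusted p = 1.3e-11, edgeR), and its log2 fold change was 0.78 ± 0.06 after 48 h and -0.07 ± 0.06 after 72 h (adjusted p = 0.32). The TPM and count scales thus differ in direction at 72 h. Reads of GCSH can be shared with its pseudogenes GCSHP5 and GCSHP3 and with an overlapping gene, which together held 16.3 to 26.9% of the summed counts in the control cells. With these counts added, the log2 fold change was 1.10 at 24 h and 0.01 at 72 h.

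SHMT2, the mitochondrial serine hydroxymethyltransferase, kept rising to the end of the course. Its TPM was 144, 161 and 156 in DMSO, 172, 173 and 158 after 6 h, and 247, 241 and 259 after 24 h. It was 308, 283 and 299 TPM after 48 h and 386, 411 and 382 TPM after 72 h. From 24 h on each group lay above the one before it without overlap. In log2 terms it gained 0.67 ± 0.04 over DMSO by 24 h, 0.88 ± 0.04 by 48 h and 1.24 ± 0.04 by 72 h (2.36-fold, adjusted p = 2e-14, edgeR).

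MTHFD2, the mitochondrial dehydrogenase and cyclohydrolase, changed little until 48 h and then rose steeply. Its TPM was 193, 194 and 200 in DMSO and 242, 238 and 250 after 24 h, then 265, 276 and 217 (48 h) and 503, 555 and 562 (72 h). All 72 h libraries lay above every other library of the series. Against DMSO it differed by -0.40 ± 0.05 (log2) after 6 h, 0.20 ± 0.05 after 24 h and 0.31 ± 0.05 after 48 h, and by 1.25 ± 0.05 after 72 h (2.37-fold, adjusted p = 2.7e-13, edgeR). Its assigned transcript length was shorter at 72 h (1807 to 1872 bases) than in DMSO (2005 to 2049), a shortening without overlap seen for 7.92% of genes.

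MTHFD1L, the mitochondrial formyltetrahydrofolate synthetase, differed from DMSO in both directions. Its TPM was 69.5, 71.6 and 73.4 in DMSO, 59.7, 58.3 and 66.5 after 6 h, 81.1, 83 and 75.9 after 24 h, and 101, 94.9 and 110 after 72 h. The 6 h libraries lay below and the 24 and 72 h libraries above the DMSO range. Its log2 fold change was -0.52 ± 0.04 after 6 h (adjusted p = 2.6e-08, edgeR) and 0.41 ± 0.04 after 72 h (1.2e-07). After 24 h it was 0.00 ± 0.04 (0.94), with a 95% interval of -0.08 to 0.09, and after 48 h -0.10 ± 0.04 (0.051). At 24 h the scales thus disagree: in TPM the gene was higher without overlap, as were 35.6% of genes, whereas in counts the difference did not pass the test. Its assigned transcript length was shorter there (1893 to 2025 bases, against 2031 to 2214 in DMSO), as for 8.09% of genes.

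AMT, the T protein, was scarce throughout, at 0.19 to 1.88 TPM and 7.91 to 87.8 expected counts per library. Its TPM was 0.35, 0.59 and 0.35 in DMSO and 1.36, 1.88 and 1.04 at 72 h, where it did not overlap any other group. The log2 fold change at 72 h was 1.98 ± 0.35 (3.93-fold, adjusted p = 6.7e-05, edgeR). When any 1 of the 3 DMSO libraries or of the 72 h libraries 1 and 2 was left out, its adjusted p rose to at most 7.9e-04 and it was no longer called. AMT overlaps NICN1 and a further gene, which held 7.03 to 123.6 counts per library, on the same strand. RSEM's posterior SD was up to 25.8% of the AMT count. The assigned transcript length of AMT was longer at 72 h (1752 to 2117 bases) than in DMSO (1477 to 1589), as for 12.5% of genes.

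**Figure D2:**
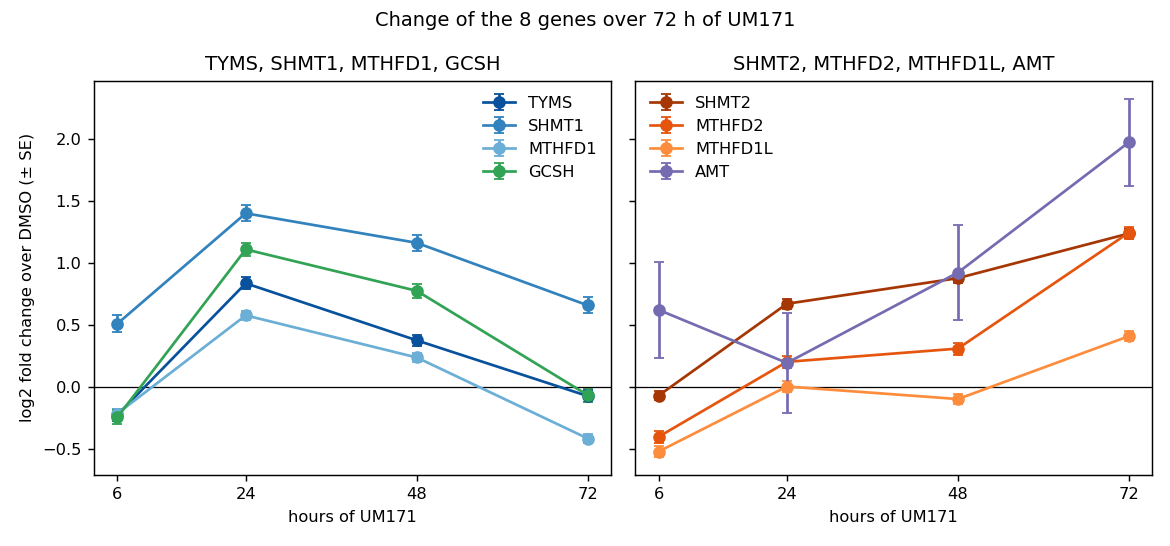
Log2 fold change over DMSO (vertical axis, ± SE, edgeR, 15 libraries) against hours of UM171 for the 8 genes. TYMS, SHMT1, MTHFD1 and GCSH (left) are highest at 24 h, with SHMT1 at 1.40; SHMT2, MTHFD2, MTHFD1L and AMT (right) are highest at 72 h, with MTHFD2 at 1.25.

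In the edgeR fit 0 of the 8 were called at 6 h, where 7.03% of all genes were, and DESeq2 and limma also called 0, although 6 of the 8 had an unadjusted p under 0.05. At 24 h SHMT1 and GCSH were called higher (9.03% of all genes), at 48 h SHMT1 (11.7%), and at 72 h SHMT2, MTHFD2 and AMT (15%). At an adjusted p under 0.05, 5 of the 8 fell and 1 (SHMT1) rose at 6 h, where 30.3% of genes fell and 31.8% rose. These 6 h falls were small, and with total count scaling, which moved the median of all genes by 0.20 on the log2 scale, 2 of the 5 still fell (MTHFD2 and MTHFD1L). On log2(TPM + 1) the direction of GCSH turned. At 24 h 6 rose (34.9% of genes) and 0 fell (34.8%), at 48 h 7 rose (37.1%) and 0 fell (35%). At 72 h 5 rose (38.8%) and MTHFD1 fell (36.8%). From 62.1% of genes at 6 h to 75.6% at 72 h passed this limit, so that passing it sets few genes apart.

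The steps between times show where the genes parted. From 6 to 24 h 7 of the 8 rose (32.5% of genes rose), all but AMT, and TYMS (2.09-fold) and GCSH (2.56-fold) were called (3.61% of genes). From 24 to 48 h TYMS, SHMT1, MTHFD1 and GCSH fell (22.0% of genes fell) and SHMT2 rose (23.6%), while 0 were called (2.85%) by edgeR, DESeq2 or limma and 7 had an unadjusted p under 0.05. From 48 to 72 h the same 4 fell (29.2%) and SHMT2, MTHFD2, MTHFD1L and AMT rose (28%), so that all 8 passed an adjusted p of 0.05, where 57.3% of genes did. Of these edgeR and DESeq2 called 0 (3.35% of genes) and limma 1. In that step the 4 that fell had log2 changes between -0.84 (GCSH) and -0.45 (TYMS) and the 4 that rose between 0.36 (SHMT2) and 1.05 (AMT), with 0.94 ± 0.05 for MTHFD2. None of these 8 overlapped in TPM between 48 and 72 h, where 30.0% of all genes lay higher and 16.9% lower without overlap.

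Ratios of partner enzymes within a library do not depend on its scaling. The ratio of MTHFD2 to MTHFD1, the mitochondrial over the cytosolic dehydrogenase, was 2.04 ± 0.08 (SD, n = 3) in DMSO and stayed between 1.97 and 2.60 on average through 48 h. At 72 h it was 8.30 ± 0.19, or 4.06-fold above DMSO, with libraries at 8.52, 8.16 and 8.22. The ratio of SHMT2 to SHMT1 moved down and then up, from 18.9 ± 0.94 in DMSO to 11.6 ± 0.67 after 24 h and 30.1 ± 1.80 after 72 h. The ratio of MTHFD1L to MTHFD1 was 0.747 ± 0.03 in DMSO, 0.655 ± 0.03 after 24 h and 1.57 ± 0.16 after 72 h. In 2-sided exact permutation tests each of these 72 h and DMSO pairs gave p = 0.1, the smallest that 3 against 3 libraries allow (0.16 after Benjamini-Hochberg adjustment over 24 comparisons). Taken on counts, with no division by length, the MTHFD2 to MTHFD1 difference at 72 h was 1.66 on the log2 scale in place of 2.02. At 48 h it was 0.07 in place of 0.35, and at 24 h -0.37 in place of -0.04, so on counts this ratio was lower at 24 h. For MTHFD1L to MTHFD1 the count difference was -0.57 in place of -0.19 at 24 h and 0.83 in place of 1.07 at 72 h.

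**Figure D3:**
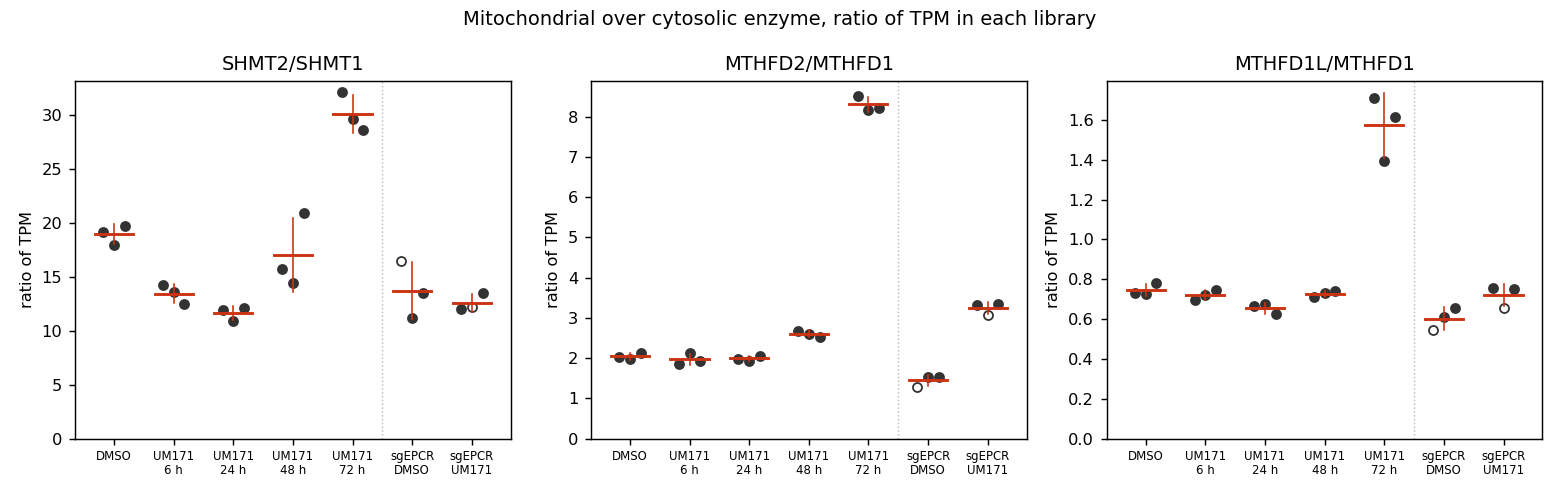
Ratio of TPM of each mitochondrial enzyme to its cytosolic counterpart in every library (points), by group, with mean (red bar) and SD (red line, n = 3); open points are the 2 sgEPCR libraries with over 30% mitochondrial counts. MTHFD2/MTHFD1 stays between 1.86 and 2.68 up to 48 h and is 8.16 to 8.52 at 72 h; in sgEPCR cells it is 1.28 to 1.54 in DMSO and 3.08 to 3.35 in UM171.

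The next comparisons ask how cells carrying the guide against EPCR differed, in DMSO and in their response to UM171, with 12 libraries and 15901 genes in the fit. In this fit the control cells at 24 h of UM171 against DMSO had 5 of the 8 higher (24.5% of genes) and SHMT1 called (5.36%), though not without any 1 of those 6 libraries (adjusted p of at most 2.3e-04). TYMS, SHMT1, SHMT2, MTHFD1 and GCSH were higher in sgEPCR than in control cells in DMSO and fell with UM171 in sgEPCR cells, whereas they rose with UM171 in control cells. In sgEPCR DMSO replicates 2 and 3 TYMS stood at 302 and 299 TPM, GCSH at 51.0 and 50.2 TPM and SHMT1 at 23.9 and 20.5 TPM. These lay at or near the values of control cells after 24 h of UM171 (279 to 299, 45.3 to 47.9 and 20.8 to 22.2 TPM). Replicate 1, with 35.9% mitochondrial counts, read 108, 31.9 and 6.70 TPM. When TPM was rescaled over genes that are not mitochondrially encoded, this library stood at 236 for TYMS, 69.4 for GCSH and 14.6 for SHMT1, against 356, 60.2 and 28.3 in replicate 2.

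Against control cells in DMSO, 5 of the 8 were higher in sgEPCR cells and 0 lower at an adjusted p under 0.05 (17.4% and 16.3% of genes), and SHMT1 was called (1.43% of genes). The log2 difference was 1.46 ± 0.14 for SHMT1 (adjusted p = 2.9e-05, edgeR), 1.52 ± 0.18 for GCSH, 0.92 ± 0.14 for TYMS, 0.79 ± 0.10 for MTHFD1 and 0.64 ± 0.22 for SHMT2. MTHFD2 (0.10 ± 0.08), MTHFD1L (0.21 ± 0.08) and AMT (0.17 ± 0.41) did not pass. Without both libraries of high mitochondrial share, SHMT1 (1.57), GCSH (1.37) and TYMS (1.04) were called. MTHFD2 (0.18) and MTHFD1L (0.24) then had adjusted p of 2e-04 and 1.9e-04. In that fit 3.11% of all genes were called higher, and 30.3% were higher at an adjusted p under 0.05. The SHMT1 call was lost without any 1 of the 3 control DMSO libraries or of sgEPCR DMSO replicates 2 and 3 (adjusted p of at most 3.9e-04). By limma on log2(TPM + 1), with both libraries kept, GCSH alone passed an adjusted p of 0.05 (0.0047), and MTHFD2 and MTHFD1L turned negative. The labelled times of these groups differ.

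With UM171 for 24 h, sgEPCR cells of the same labelled time in DMSO being the comparison, 6 of the 8 fell and 0 rose (25.1% and 27.0% of genes), and MTHFD1 was called lower (3.33% of genes). MTHFD1 read 67.5, 140 and 133 TPM in DMSO and 65.5, 36.8 and 64.6 TPM in UM171. Its ranges did not overlap, as was so for lower values in 4.89% of genes, although the high-mitochondrial DMSO library came close. Its log2 fold change was -1.19 ± 0.10 (2.28-fold lower, adjusted p = 3.3e-06, edgeR), and -1.19 without the 2 libraries. GCSH (-1.02 ± 0.18), MTHFD1L (-0.87 ± 0.08), SHMT1 (-0.84 ± 0.14), TYMS (-0.77 ± 0.14) and SHMT2 (-0.75 ± 0.22) also fell. MTHFD2 (-0.12 ± 0.08, 95% interval -0.28 to 0.04) and AMT (0.14 ± 0.41) did not pass. Without both libraries of high mitochondrial share the 6 values lay between -1.19 and -0.70, GCSH was called as well (-1.13), and MTHFD2 was at -0.16 (adjusted p = 8.6e-04). In that fit 36.4% of all genes fell and 34.5% rose. By limma on log2(TPM + 1) 2 of the 6 passed an adjusted p of 0.05, MTHFD1 (0.033) and GCSH (0.026), and MTHFD2 turned positive. GCSH was also called by edgeR without sgEPCR UM171 replicate 2 alone, with an adjusted p of 1.5e-05. In the high-mitochondrial libraries the GCSH pseudogenes and overlapping gene held 5.88% and 9.23% of the summed counts, against 17.7 to 24.6% in the other sgEPCR libraries.

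The ratio of MTHFD2 to MTHFD1 rose in sgEPCR cells too, from 1.28, 1.54 and 1.52 in DMSO to 3.33, 3.08 and 3.35 in UM171, 2.25-fold on average, with no overlap and exact p = 0.1 (2-sided permutation test, the smallest possible). In control cells the same ratio at 24 h was 1.98, 1.94 and 2.06. The difference between sgEPCR and control cells at 24 h of UM171 also reached p = 0.1 in the exact permutation test, with a 1.63-fold higher ratio in sgEPCR cells. The SHMT2 to SHMT1 ratio, at 13.7 ± 2.65 and 12.6 ± 0.80 (SD, n = 3), overlapped between the sgEPCR groups.

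The difference of the 2 responses was tested as an interaction. TYMS, SHMT1, MTHFD1 and GCSH were called lower (4.17% of genes), and 7 of the 8 passed an adjusted p of 0.05 with a lower response in sgEPCR cells (23.1% of genes). The log2 difference was -2.25 ± 0.20 for SHMT1 (adjusted p = 8.9e-06, edgeR), -2.13 ± 0.26 for GCSH, -1.77 ± 0.14 for MTHFD1 and -1.61 ± 0.19 for TYMS. It was -1.43 ± 0.32 for SHMT2 and -0.88 ± 0.11 for MTHFD1L. MTHFD2 differed the least of those that passed (-0.33 ± 0.12, adjusted p = 0.041), and AMT did not pass (-0.10 ± 0.57). Without both libraries of high mitochondrial share these values were -2.24, -2.24, -1.76, -1.60, -1.37, -0.85, -0.36 and 0.05 in the same order, and SHMT2 was called in addition. The share of all genes called in that fit is not given here. The GCSH call was lost without any 1 library other than sgEPCR UM171 replicate 2. The TYMS call was lost without any 1 library other than sgEPCR DMSO replicate 1 and sgEPCR UM171 replicate 2. Their adjusted p then stayed at or under 4.1e-04. By limma on log2(TPM + 1), with all 12 libraries, GCSH passed (adjusted p = 0.0012) and MTHFD1 (0.056), SHMT1 (0.077) and TYMS (0.15) did not. This contrast uses control DMSO libraries labelled 72 h and sgEPCR DMSO libraries labelled 24 h, so genotype and labelled time cannot be told apart in it.

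**Figure D4:**
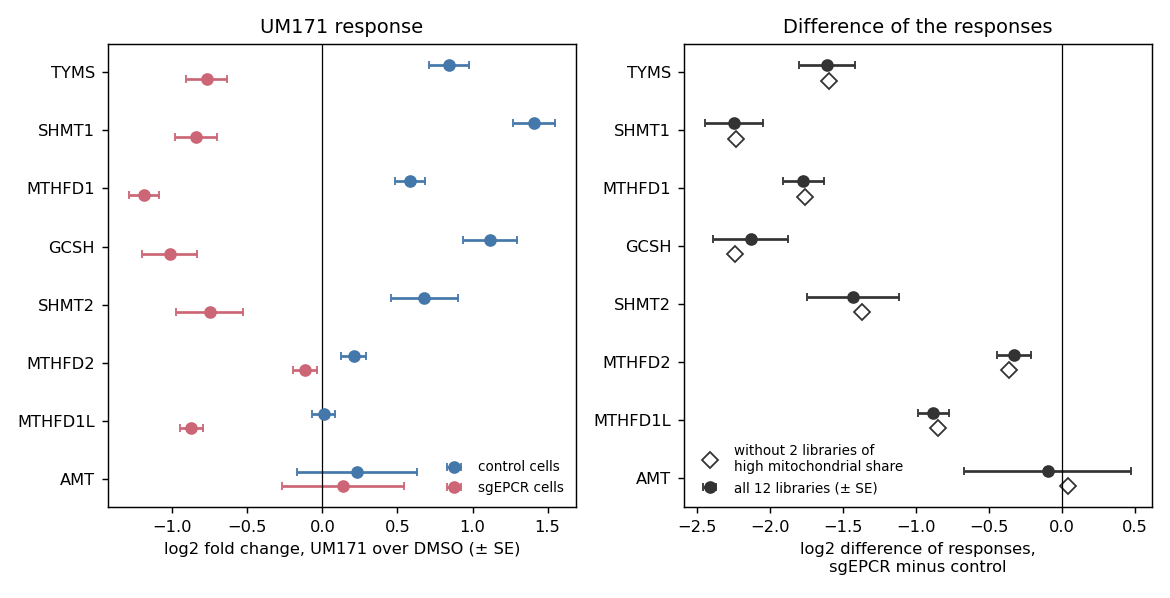
Left, log2 fold change of UM171 over DMSO (± SE, edgeR, 12 libraries) in control and sgEPCR cells for the 8 genes; right, the difference of these responses with all 12 libraries (filled, ± SE) and without the 2 of high mitochondrial share (open). SHMT1 goes from 1.41 in control to -0.84 in sgEPCR cells, whereas MTHFD2 lies near 0 in both (0.21 and -0.12).

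At 24 h of UM171, the pair of groups with the same labelled time, 7 of the 8 were lower in sgEPCR than in control cells (22.2% of genes), all but AMT, and 0 were called by edgeR, DESeq2 or limma (4.46% of genes in edgeR). The log2 difference ranged from -0.98 ± 0.10 for MTHFD1 to -0.22 ± 0.08 for MTHFD2, the latter at an adjusted p of 0.05 after rounding. Without both libraries of high mitochondrial share the 7 lay between -0.89 (MTHFD1) and -0.18 (MTHFD2), and each still passed an adjusted p of 0.05. The share of all genes passing in that fit is not given here. By limma on log2(TPM + 1) MTHFD1 (adjusted p = 0.024) and GCSH (0.02) passed.

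The other enzymes around the folate cycle were described by lists. Serine synthesis from glycolysis (PHGDH, PSAT1 and PSPH) stood above DMSO from 24 h on. At 24, 48 and 72 h 3 of 3 genes were called higher, as were 9.03%, 11.7% and 15% of all genes. The median log2 fold change was 1.63 after 24 h and 2.85 after 72 h, against -0.01 and 0.02 over all genes. PHGDH, which starts the pathway, went from 40.3 to 43.6 TPM in DMSO to 378 to 438 TPM at 72 h (9.16-fold, adjusted p = 1.4e-17, edgeR), and PSAT1 from 56.9 to 60.7 TPM to 411 to 471 TPM. ALDH1L2, the mitochondrial formyl-folate dehydrogenase, was called at 24, 48 and 72 h and reached 8.89-fold. In the list of 7 tested folate enzymes outside the members it was the only gene called at 72 h. MTHFD2L, the paralog of MTHFD2, did not follow it, with log2 fold changes of 0.10 ± 0.06 at 24 h and -0.40 ± 0.06 at 72 h. In folate transport, SLC19A1, the reduced folate carrier, was called lower at 72 h (-1.54 ± 0.06, with 5.8% of all genes called lower), going from 30.3 to 32.6 TPM in DMSO to 11.8 to 14.1 TPM, and SLC25A32, the mitochondrial folate carrier, fell by 0.93 on the log2 scale. Of the 6 tested genes of folate transport 2 rose and 3 fell at 72 h, where 38.8% of all genes rose and 36.8% fell. Of 6 tested serine and glycine transporters 5 rose and 1 fell at 72 h. Among them SFXN3 (1.32 ± 0.05) and SLC38A2 (1.04 ± 0.04) were called higher, as were 15% of all genes.

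The glycine cleavage partners showed no shared direction. GLDC, the glycine-decarboxylating P protein, was at 0.32 to 0.6 TPM in DMSO and 0.93 to 1.26 TPM at 24 h, and DLD, the shared L protein, at 73.0 to 74.2 TPM and 92.3 to 100.5 TPM. Of the 5 genes of this list 0 were called in any comparison with all libraries, while at an adjusted p under 0.05 3 rose and 2 fell at 24 h and 1 rose and 3 fell at 72 h. Over all genes 34.9% rose and 34.8% fell at 24 h, and 38.8% rose and 36.8% fell at 72 h. In the list of 10 methionine cycle genes 8 were tested. CTH (3.78 ± 0.09) and CBS (2.55 ± 0.11), which turn homocysteine into cysteine, were called higher at 72 h, and MAT2A, which makes S-adenosylmethionine, was called lower (-1.55 ± 0.04).

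Users of folate carbon moved as follows. Of 10 purine synthesis genes 6 rose and 1 fell at 24 h (median log2 fold change 0.22), where 34.9% of all genes rose and 34.8% fell, and 1 rose and 6 fell at 72 h (median -0.13), where 38.8% rose and 36.8% fell. The medians over all genes were -0.01 and 0.02. Of 9 genes for thymidylate and deoxynucleotide supply 7 rose at 24 h (median 0.42, with 34.9% of all genes rising), among them RRM2, a ribonucleotide reductase subunit (1.30 ± 0.04), and TK1, thymidine kinase (1.04 ± 0.08), both called (9.03% of all genes were called higher). TK2, the mitochondrial thymidine kinase, was called lower at 24 h (-1.06 ± 0.07, with 4.7% of all genes called lower). At 72 h this list was mixed: TK1 (0.20) and RRM2 (0.26) rose, and DTYMK (-0.76), RRM1 (-0.25), TK2 (-0.25) and DCK (-0.20) fell. DUT, DCTD and RRM2B did not pass at 72 h. All 11 DNA replication genes taken for comparison (MCM2 to MCM7, PCNA, E2F1, CCNE2, MKI67 and TOP2A) rose at 24 h (median 0.30, against 34.9% of all genes rising) and all 11 fell at 72 h (median -0.55, against 36.8% falling), with MCM4 (-1.14 ± 0.04) and PCNA (-1.07 ± 0.07) called at 72 h. These values stand beside the 24 h maximum of TYMS, SHMT1, MTHFD1 and GCSH, and their part in it was not tested. Of 11 amino acid response genes taken for comparison 2 were called higher at 24 h (9.03% of all genes) and 10 at 72 h (15% of all genes), with medians of 0.54 and 1.90. They were led at 72 h by DDIT4 (5.39 ± 0.14), CHAC1 (3.69 ± 0.09) and VLDLR (3.42 ± 0.08), and ATF5 was called lower (-1.35 ± 0.07). These values stand beside the 72 h maximum of SHMT2 and MTHFD2, and their part in it was not tested.

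In sgEPCR cells with UM171, 10 of the 11 DNA replication genes fell and 0 rose (median -1.03), and 8 of the 10 purine synthesis genes fell (median -0.90), where 25.1% of all genes fell and their median was -0.01. Without both libraries of high mitochondrial share all 11 and all 10 fell (medians -1.04 and -0.93, with 36.4% of all genes falling). Of the serine synthesis genes PSAT1 was called lower (-1.05 ± 0.07, and -1.15 without both libraries) while PHGDH (-0.56 ± 0.29) and PSPH (-0.18 ± 0.17) did not pass. Without both libraries PHGDH (-0.48 ± 0.04) and PSPH (-0.34 ± 0.06) fell too. Of the amino acid response genes 4 were called higher (6.99% of all genes), and 3 without both libraries (9.98%). They were led by DDIT4 (2.63 ± 0.19, and 2.58 without both libraries) and ATF3 (2.29 ± 0.11, and 2.32), and ASNS, asparagine synthetase, fell (-0.68 ± 0.10, and -0.70).

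Against control cells in DMSO, 9 of the 11 DNA replication genes were higher in sgEPCR cells (median 0.67), and all 3 serine synthesis genes were (median 0.97), where 17.4% of all genes were higher. Without both libraries all 11 and all 3 were (medians 0.80 and 1.18, with 30.3% of all genes higher). GLDC, unlike its partner GCSH, was higher with UM171 in sgEPCR cells, at 0.02 to 0.14 TPM in DMSO and 0.39 to 0.85 TPM in UM171 (adjusted p = 3e-04, edgeR, and 4.7e-04 without both libraries). These GLDC levels are very low, which limits what can be said of it. In DMSO GLDC was lower in sgEPCR than in control cells (-2.44 ± 0.54, adjusted p = 0.0051, edgeR), at differing labelled times. Without both libraries LIPT1, a lipoyltransferase, was also called lower with UM171 in sgEPCR cells (-1.04 ± 0.10).

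**Figure D5:**
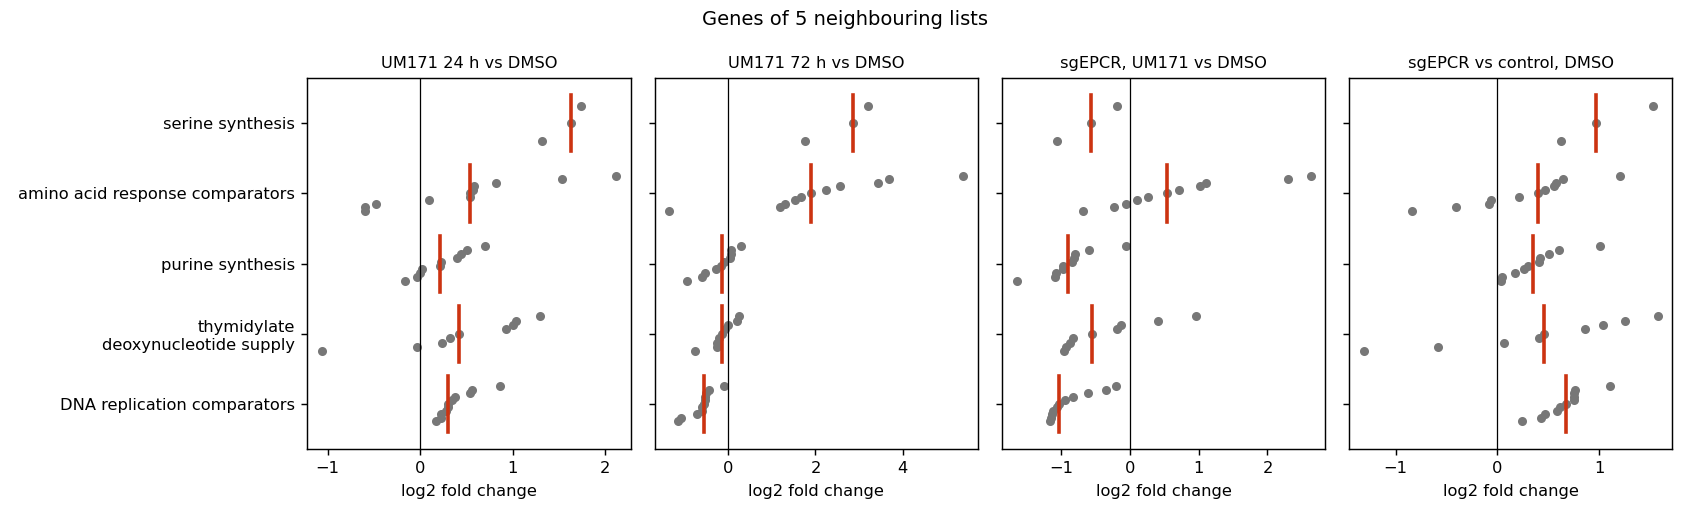
Log2 fold change (horizontal axis) of each gene (points) in 5 lists around the folate cycle, with the list median (red bar), in 4 comparisons from left to right. DNA replication genes have medians of 0.30 at 24 h, -0.55 at 72 h, -1.03 in sgEPCR cells with UM171 and 0.67 for sgEPCR against control cells in DMSO; serine synthesis is at 2.85 at 72 h.

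Over the 7 group means of log2(TPM + 1), the genes most like TYMS among 11151 were RRM1 (Pearson's r = 0.988), SDHA (0.982) and GTF3C5 (0.982). Most like SHMT2 were SOX12 (0.997), EIF4EBP1 (0.986) and PSAT1 (0.982), and most like MTHFD2 were PFKL (0.989), TSPO (0.984) and ITGB2 (0.976). The nearest genes were UCHL5 for MTHFD1 (0.997), MTA1 for MTHFD1L (0.985), UBE2T for SHMT1 (0.979), ATP5MF for GCSH (0.990) and NDUFA4L2 for AMT (0.991). Between members the highest values were 0.924 for TYMS with GCSH and 0.887 for MTHFD2 with AMT, and the lowest was -0.376 for TYMS or MTHFD1 with AMT. These are descriptions over 7 points that share libraries and their high-mitochondrial replicates.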

How the data were processed

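Poly(A) RNA of 21 OCI-AML5 libraries was prepared with a stranded kit. The submitters' processing notes name CASAVA 1.8.2, Trimmomatic 0.35, STAR 2.5.1b, RSEM 1.2.28 and GRCh38, whereas the study's methods name kallisto and sleuth; the strand setting of the counting is not given in the sources used here. The authors deposited, per library and gene, the expected count from RSEM (not normalized, with ambiguous reads divided among genes) and TPM (scaled by effective length to a fixed library total). Deposited credibility bounds and posterior standard deviations, each treated as a score, and transcript lengths served only to describe uncertainty. The labels give 500 nM UM171, and 72 h for the DMSO libraries of the control cells. The study's figure legends give a lower dose for both the time course and the genotype comparison, and its tables an earlier time. The labels were used.

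The files list 58219 entries, of which 45 from the Y pseudoautosomal region were added to those of X. Expected counts were rounded and fitted with edgeR 4.0.16 in R 4.3.3 (filterByExpr, TMM, glmQLFit, glmQLFTest, Benjamini-Hochberg over all tested genes), with 15 libraries for the time course and 12 for genotype and no replicate term. Call limits (adjusted p under 0.0001, over 2-fold) are the study's. The SE was taken as |log2 fold change| over √F. Promoters came from RefSeq (GRCh38.p14). Ratios were compared by 2-sided exact permutation tests (scipy 1.17.1). Counts cover sampling of reads only.

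On simulated data, 100 of 100 genes changed by 1.5 (log2) were called for 24 h against DMSO (16104 genes), but 11 of 100 for the interaction (15614 genes), where 74 passed an adjusted p of 0.05. Members, lists, tests and alternatives were chosen with earlier results of these data known. Beyond the members, partners listed in advance were named, with the largest changes of each list; ASNS, GLDC and LIPT1 in sgEPCR cells and the marker genes at 1 TPM were named after their values were seen. Alternatives were DESeq2 1.42.0, limma 3.58.1 on TPM, other scalings and filters, other sets of libraries, a replicate block and leaving out each library. Libraries sharing a number did not deviate together in every pair (correlations from -0.803 to 0.708). In sgEPCR cells the DMSO replicate 1 and UM171 replicate 2, both of high mitochondrial share, deviated together (0.834). The correlations there follow these libraries and cannot judge pairing. Numbers were not taken as pairs.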

Additional observations from a re-analysis of the deposited data

Results flagged for a closer look

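For 7 of the 8 genes the response to 24 h of UM171 differed between sgEPCR and control cells in a test of the difference itself (edgeR interaction, adjusted p under 0.05). At this limit 23.1% of all genes had a lower response in sgEPCR cells and 21.9% a higher one. The log2 difference, sgEPCR minus control, was -1.61 for TYMS, -2.25 for SHMT1, -1.43 for SHMT2, -1.77 for MTHFD1, -0.33 for MTHFD2, -0.88 for MTHFD1L and -2.13 for GCSH. TYMS, SHMT1, SHMT2, MTHFD1 and GCSH rose in control cells and fell in sgEPCR cells, each at an adjusted p under 0.05. MTHFD1L did not pass in control cells (0.01 ± 0.08) and fell in sgEPCR cells (-0.87 ± 0.08), and MTHFD2 passed in neither. With total count scaling 4 of the 8 passed for the difference, and by limma on log2(TPM + 1) 1 did. By limma 1 of the 8 rose in control cells and 2 fell in sgEPCR cells. Because control DMSO libraries are labelled 72 h and sgEPCR DMSO libraries 24 h, genotype and labelled time cannot be told apart in these values. At equal labelled time, in UM171 at 24 h, the same 7 genes were lower in sgEPCR cells by edgeR, as were 22.2% of all genes. By limma on log2(TPM + 1) 2 of the 8 were. Within groups of 3 libraries no test for single outlying values was made. With each of the 12 libraries left out in turn, 2 to 4 of the 8 were called for the difference, against 4 with all of them. The GCSH call was lost in 11 and the TYMS call in 10 of these 12 fits.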

How the results depend on the processing

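Across the members' log2 fold changes, 859 values under alternatives that kept all replicates or dropped both libraries of high mitochondrial share kept their direction and side of the call limits, 36 lost the call, 22 gained it and 34 turned sign. When single libraries were left out, 570 kept both, 37 lost the call, 1 gained it and 16 turned sign. The causes were not tested. With an adjusted p under 0.05 and no minimum fold, 6 of 8 passed at 6 h, where 62.1% of all genes did. At 24 and 72 h 6 passed (69.7% and 75.6% of all genes), and at 48 h 7 (72.1%). Between times 7 passed from 6 to 24 h (67.1%), 5 from 24 to 48 h (45.7%) and 8 from 48 to 72 h (57.3%). In the genotype fit 5 passed for control cells at 24 h (44.7%) and 6 for UM171 in sgEPCR cells (52.1%). For genotype 5 passed in DMSO (33.7%) and 7 in UM171 (43.0%), and for the interaction 7 (45.0%). From 6 to 24 h and from 48 to 72 h, limma with either pseudocount (1 or 0.1), total count and upper quartile scaling each called 1. In the genotype fit limma called 0 in every comparison. The replicate block called 0 in every comparison of that fit, while in the time course it left the counts of calls within 1.5 times. DESeq2, and all 21 libraries fitted together, called 2 each for control cells at 24 h, for UM171 in sgEPCR cells and for genotype in DMSO. Without both libraries of high mitochondrial share the calls were 2, 2 and 3, and for genotype in DMSO 3.11% of all genes were then called higher. For the other calls by setting, shares over all genes are not given here. Total count scaling called 0 for UM171 in sgEPCR cells and 1 for the interaction, upper quartile scaling 2 for the interaction, and no filter 2 for genotype in DMSO and 1 in UM171. Leaving out single libraries gave 2 to 3 calls at 72 h, 0 to 0 for control cells in the genotype fit, 1 to 2 for UM171 in sgEPCR cells, 0 to 1 for genotype in DMSO and 2 to 4 for the interaction. The median over all genes moved under total count scaling by 0.20 at 6 h, -0.19 from 6 to 24 h, 0.16 for UM171 in sgEPCR cells, -0.25 and -0.13 for genotype in DMSO and in UM171, and 0.12 for the interaction.

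Signs turned mostly where a value was near 0. Under limma (pseudocounts 1 and 0.1) SHMT2 at 6 h was 0.12 and 0.13, GCSH at 6 h 0.089 and 0.093 and at 72 h 0.15 and 0.15, MTHFD2 with UM171 in sgEPCR cells 0.16 and 0.16 and for genotype in DMSO -0.32 and -0.33, MTHFD1L for genotype in DMSO -0.13 and -0.14, AMT with UM171 in sgEPCR cells -0.057 and -0.17 and for genotype in UM171 -0.084 and -0.31. Under total count scaling SHMT2 at 6 h was 0.12, TYMS at 72 h 0.0045, GCSH at 72 h 0.011, MTHFD2 with UM171 in sgEPCR cells 0.039 and for genotype in DMSO -0.13, MTHFD1L for genotype in DMSO -0.037, and AMT -0.064, -0.013 and 0.051 for genotype in DMSO, in UM171 and the interaction. Under upper quartile scaling SHMT2 at 6 h was 0.028, MTHFD1L at 24 h -0.014 (in the genotype fit -0.019), GCSH at 72 h 0.0052 and AMT in the interaction 0.047. MTHFD1L at 24 h in the genotype fit was -0.0035 with DESeq2 and -0.0015 without mitochondrially encoded genes, GCSH at 72 h with related genes added was 0.0067, and AMT in the interaction without both libraries was 0.047. With single libraries left out, AMT ranged from -0.091 to 0.49 at 24 h (-0.072 to 0.53 in the genotype fit), -0.38 to 0.39 with UM171 in sgEPCR cells, -0.44 to 0.39 for genotype in UM171 and -0.62 to 0.21 in the interaction, and MTHFD1L from -0.023 to 0.043 at 24 h (-0.023 to 0.072 in the genotype fit). Counts of 7.91 to 87.8 limit what can be said of AMT.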
